A study of Homo sapiens with 21 samples.

Results

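This comparison set BT-TPR1 and BT-TPR2, BT474 pools resistant to trastuzumab together with pertuzumab (here dual-resistant), against BT-TR1 and BT-TR2, BT474 pools resistant to trastuzumab. It used the 12 libraries of these 4 pools, 3 per pool, of 21 libraries in the series, and all 37355 genes of the count table, of which 17650 had enough reads to be tested. BT474 is an established line of human breast cancer cells in which ERBB2, the gene of the receptor HER2, is amplified. All pools derive from it, and each was kept without antibody for 7 days before harvest, so no group in the comparison was under treatment when collected. Untreated, antibody-sensitive BT474 cells (3 libraries) are given as a reference level. The other 6 libraries, of cells treated for 3 days with 10 µg/mL trastuzumab alone or with 10 µg/mL pertuzumab added, entered the fit only and a reference plot. The labels do not say how the pools were selected, whether a pool came from 1 clone, or how independent its 3 libraries were, so p-values over libraries measure only the spread between these libraries, which may be technical.

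HER2 is a receptor tyrosine kinase with no known ligand of its own, which signals by pairing with EGFR, HER3 (ERBB3) or HER4 (ERBB4) into the PI3-kinase and ERK pathways. Trastuzumab binds HER2 close to the membrane, and pertuzumab binds the arm through which HER2 pairs with its partners, HER3 above all.

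A gene was called shared when it differed at an adjusted p under 0.05 (edgeR quasi-likelihood test, Benjamini-Hochberg over all tested genes) in the same direction in all 4 contrasts, each dual-resistant pool against each trastuzumab-resistant pool. Levels are CPM, read counts scaled to the TMM-normalized library size, and changes are log2 fold changes, dual-resistant minus trastuzumab-resistant, ± standard error. Where 4 changes are listed, they are BT-TPR1 against BT-TR1, then against BT-TR2, and BT-TPR2 against BT-TR1, then against BT-TR2. A gene's smallest change is the one of its 4 changes nearest 0.

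The shared calls numbered 98 genes higher in the dual-resistant pools (0.555% of the tested genes) and 327 lower (1.85%), 425 in all (2.41%). Of these, 95 and 297 are protein-coding. Among the genes higher were SLC44A5, HGD, PPP1R1B, PODXL, PEG10 and CDH2, and among the genes lower were NCMAP, GPX8, ANXA1, DKK1, the mammaglobins and the TGF-beta family ligand gene TGFB3. The median smallest change was 1.55-fold for the genes higher and 1.72-fold for those lower, and 18 and 121 genes differed at least 2-fold in every contrast. For 97 of the 98 and 325 of the 327, no dual-resistant library overlapped any trastuzumab-resistant library. This separation largely follows from the rule for a shared call, which uses the same libraries, and is no further support. Without any test, 344 genes (1.95%) had all 6 dual-resistant libraries above all 6 trastuzumab-resistant libraries and 737 (4.18%) had all below, together 6.12%.

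The single contrasts differed in size. Against BT-TR1, BT-TPR1 differed in 4840 genes (27.4%; 13.8% higher and 13.6% lower) and BT-TPR2 in 4448 (25.2%; 12.2% and 13%). Against BT-TR2, BT-TPR1 differed in 1225 (6.94%; 2.42% higher and 4.52% lower) and BT-TPR2 in 1250 (7.08%; 2.53% and 4.55%). Pools of 1 class differed too, BT-TR2 from BT-TR1 in 3130 genes (17.7%, with 9.64% higher and 8.09% lower) and BT-TPR2 from BT-TPR1 in 609 (3.45%, with 1.64% and 1.81%). The change against BT-TR1 moved with the GC content of the gene (r = 0.489 for BT-TPR1 and 0.453 for BT-TPR2, across 17554 genes, which are not independent replicates), as did that of BT-TR2 against BT-TR1 (0.629). Against BT-TR2 the same r was -0.04 and -0.10. The part of GC content in these counts was not tested, but after correcting each library for it the shared calls were 298 higher and 442 lower, and 88 of the 98 and 289 of the 327 were among them. Replicate numbers paired the libraries in both contrasts with BT-TR2 and between the dual-resistant pools. With replicate number as a block those 3 counts were 3150, 3012 and 2119. The shared calls were then 260 and 611, but these also need the contrasts with BT-TR1, whose replicate 2 was not paired by number with any pool. The count of shared higher calls was 58 without BT-TR2 replicate 2 and 61 without BT-TR2 replicate 3.

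With the reads of each pool summed, so that the 2 pools of a class are the replicates, edgeR called 4 genes higher (0.0227%) and 29 lower (0.164%), 33 in all (0.187%), all of them shared calls, and 565 higher and 1039 lower passed an unadjusted p under 0.05. The genes higher were SLC44A5, HGD, PPP1R1B and TENM4, and those lower included NCMAP, GPX8, ANXA1, UGT3A2, PTPRM, BPIFB1, PLS3 and FAM65C. This count rests on 2 residual degrees of freedom and ran from 0 with library size alone, or without BT-TR1 replicate 1 or BT-TR2 replicate 2 or 3, to 667 without a filter on low counts. An exact permutation of 2 pools against 2 could not give a two-sided p under 0.333 for any gene.

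**Figure D1:**
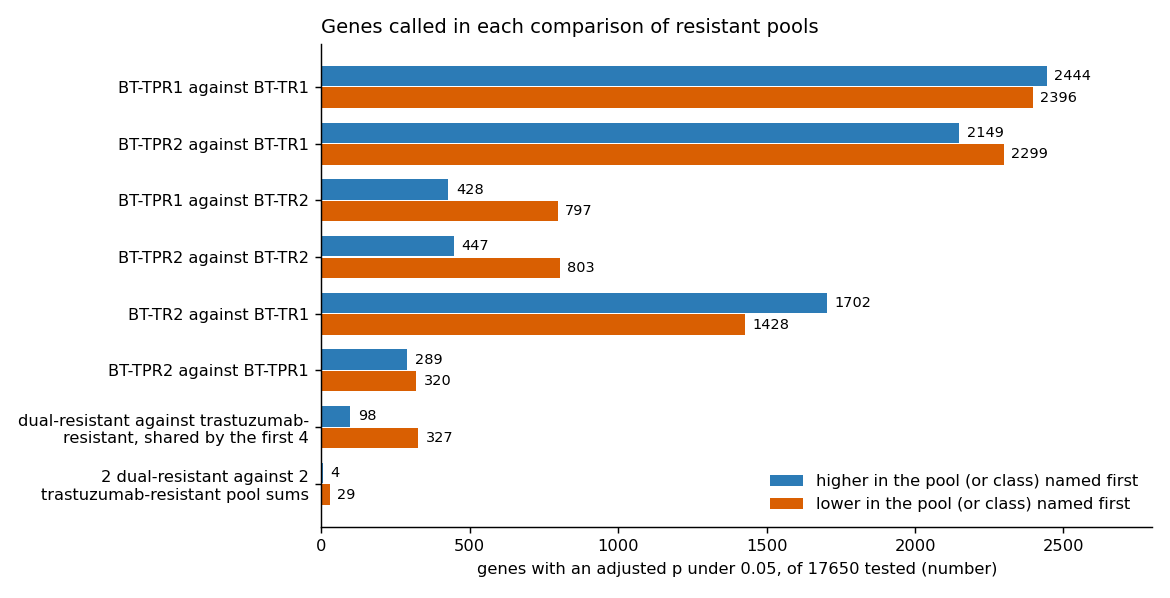
Number of genes with an adjusted p under 0.05 (horizontal axis, of 17650 tested) in the 4 contrasts between classes, the 2 contrasts within a class, the calls shared by the first 4, and the test on pool sums; blue bars are genes higher and orange bars genes lower in the pool or class named first. The contrasts with BT-TR1 hold 4840 and 4448 calls and those with BT-TR2 1225 and 1250, while 98 and 327 are shared.

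The libraries held between 7939270 (BT-TR1 replicate 3) and 19559313 counts each. Transcripts of the mitochondrial genome took 16.2% to 21.7% of counts in the trastuzumab-resistant libraries and 13.7% to 20.8% in the dual-resistant ones. The 12 luminal and HER2-amplicon markers summed to between 9168 and 17208 CPM in trastuzumab-resistant libraries and between 9800.1 and 16701 in dual-resistant ones. ERBB2 was the largest part of these sums, at a mean of 6466 CPM over the 12 libraries, and GATA3 the smallest, at 82.4 CPM. The 6 leukocyte markers in the table summed to under 1 CPM in every library, with MS4A1 at 0, and the 7 fibroblast markers to 16.3 to 41.2 against 17.3 to 35.03 CPM, mostly COL1A1, with DCN at 0. The 6 basal markers summed to 9.65 to 11.5 against 5.97 to 9.80 CPM and the 7 endothelial markers to 5.56 to 16.8 against 5.57 to 9.19 CPM. Of these 5 lists a single member, the endothelial cadherin gene CDH5, was a shared call (lower, -1.59 to -2.61). The part of these markers in other results was not tested, and in these bulk libraries fewer cells of a type and less RNA per cell cannot be told apart.

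The 4 HER receptor genes came first, as the genes of the antibodies' targets. ERBB2 stood at 6496, 5657 and 4162 CPM (BT-TR1), 9499, 6298 and 7279.6 CPM (BT-TR2), 7168, 4575 and 5998 CPM (BT-TPR1) and 9269, 5326 and 5871 CPM (BT-TPR2). The 2 classes overlapped, and the 4 changes, 0.12 ± 0.24, -0.38 ± 0.24, 0.33 ± 0.24 and -0.17 ± 0.24, did not pass (edgeR, adjusted p from 0.325 to 0.809), which does not show that the levels were equal. In the contrasts with BT-TR2, where replicate numbers paired the libraries, each dual-resistant library was below the BT-TR2 library of its number. With the replicate block those changes were -0.38 (adjusted p = 0.0536 in edgeR) for BT-TPR1 and -0.19 (0.367) for BT-TPR2, and with GC correction added the first passed (-0.30, 0.0345). Against BT-TR1 the direction turned with GC correction, to -0.25 and -0.054. ERBB3 stood at 521, 588 and 538 CPM (BT-TR1), 495, 453 and 508 CPM (BT-TR2), 491, 424 and 545 CPM (BT-TPR1) and 627, 452 and 580.0 CPM (BT-TPR2), again overlapping, with changes from -0.17 to 0.19 that did not pass. ERBB4, the receptor for neuregulins that can pair with HER2, was the family's shared call. It stood at 5.48, 7.13 and 4.88 CPM (BT-TR1), 9.05, 8.74 and 7.82 CPM (BT-TR2), 16.8, 18.7 and 16.3 CPM (BT-TPR1) and 15.6, 12.6 and 15.3 CPM (BT-TPR2). All 6 dual-resistant libraries lay above all 6 trastuzumab-resistant ones and near the untreated range of 13.7 to 17.5 CPM. Its changes were 1.55 ± 0.16, 1.01 ± 0.15, 1.30 ± 0.16 and 0.76 ± 0.15 (edgeR, largest adjusted p = 0.00293). EGFR was higher in BT-TPR2 against BT-TR1 (0.48 ± 0.13) and BT-TR2 (0.51 ± 0.13), where its libraries held 105, 96.6 and 101 CPM, but not in BT-TPR1 (0.12 ± 0.13 and 0.15 ± 0.13). The EGFR call against BT-TR2 ended in the fit without BT-TR2 replicate 1 (0.42, adjusted p = 0.105) or replicate 2 (0.52, 0.0544) and without BT-TPR2 replicate 1 (0.48, 0.0599) or replicate 3 (0.51, 0.0516). BT-TPR2 was not shown to differ from BT-TPR1 in EGFR (0.36 ± 0.13, adjusted p = 0.164 in edgeR).

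Of the genes higher, 3 sit in signalling, transport and amino acid breakdown. SLC44A5, a member of the choline transporter-like family (ENSG00000137968.16, chromosome 1, 75202131 to 75611116, minus strand, hg38), stood at 2.82, 3.91 and 1.85 CPM (BT-TR1), 2.52, 3.65 and 3.71 CPM (BT-TR2), 9.76, 9.99 and 11.1 CPM (BT-TPR1) and 12.7, 10.8 and 13.3 CPM (BT-TPR2). Every dual-resistant library also exceeded every untreated library (2.99 to 4.08 CPM). Its changes were 1.81 ± 0.22, 1.64 ± 0.20, 2.07 ± 0.22 and 1.89 ± 0.20 (edgeR, largest adjusted p = 2.82e-05). HGD, homogentisate dioxygenase of tyrosine breakdown (ENSG00000113924.11, chromosome 3, 120628173 to 120682571, minus strand), stood at 7.04, 7.04 and 6.99 CPM (BT-TR1), 9.29, 8.95 and 8.26 CPM (BT-TR2), 24.8, 22.3 and 24.2 CPM (BT-TPR1) and 24.4, 22.9 and 24.7 CPM (BT-TPR2). The dual-resistant libraries lay within the untreated range (21.6 to 28.5 CPM) and the trastuzumab-resistant libraries well under it, a difference of 1.76 ± 0.12, 1.43 ± 0.12, 1.77 ± 0.12 and 1.44 ± 0.11 (edgeR, largest adjusted p = 3.13e-07). PPP1R1B, also called DARPP-32, an inhibitor of protein phosphatase 1 when phosphorylated by protein kinase A, lies near ERBB2 (ENSG00000131771.13, chromosome 17, 39626740 to 39636626, plus strand). It stood at 26.8, 22.8 and 21.1 CPM (BT-TR1), 31.8, 34.5 and 33.4 CPM (BT-TR2), 100.5, 92.8 and 95.4 CPM (BT-TPR1) and 71.4, 83.5 and 82.5 CPM (BT-TPR2). All pools exceeded untreated cells (2.02 to 2.63 CPM), and the dual-resistant pools were higher again by 2.03 ± 0.15, 1.53 ± 0.14, 1.74 ± 0.14 and 1.25 ± 0.14 (edgeR, largest adjusted p = 7.48e-06). Its truncated isoform cannot be separated in counts per gene. TENM4, a teneurin adhesion protein named here after its values were seen, stood at 1.63, 1.65 and 1.71 CPM (BT-TR1), 2.52, 1.75 and 1.67 CPM (BT-TR2), 9.59, 7.48 and 8.90 CPM (BT-TPR1) and 9.41, 6.04 and 5.95 CPM (BT-TPR2), against 4.85 to 7.03 CPM in untreated cells.

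In the next 5 genes, several of them of cell adhesion, the trastuzumab-resistant pools lay under the untreated level. PODXL, the sialomucin podocalyxin, stood at 58.5, 64.7 and 53.8 CPM (BT-TR1), 66.9, 59 and 68.2 CPM (BT-TR2), 177, 147 and 189 CPM (BT-TPR1) and 150.1, 111 and 138 CPM (BT-TPR2), with untreated cells at 114 to 130.3 CPM. Its changes ran from 1.04 to 1.53. PEG10, an imprinted retrotransposon-derived gene, stood at 38.3, 43.8 and 47.6 CPM (BT-TR1), 72.4, 83.9 and 76.5 CPM (BT-TR2), 165, 180.3 and 171 CPM (BT-TPR1) and 126, 166 and 159.8 CPM (BT-TPR2). Untreated libraries held 179 to 235 CPM, so the dual-resistant pools lay nearer to them. CDH2, encoding N-cadherin, stood at 1.63, 2.78 and 1.58 CPM (BT-TR1), 3.54, 2.98 and 3.91 CPM (BT-TR2), 6.49, 6.03 and 7.81 CPM (BT-TPR1) and 8.72, 8.32 and 10.8 CPM (BT-TPR2), with changes of 0.97 to 2.20. Both classes lay under the untreated 20.3 to 24.6 CPM. EFS, an adaptor of the p130Cas family, showed 1.45 to 4.19 CPM in the trastuzumab-resistant and 7.70 to 13.8 in the dual-resistant libraries, the latter around the untreated range of 7.28 to 10.2 CPM. SUSD4, a complement regulator, showed 2.43 to 3.54 against 5.53 to 9.41 CPM (changes 0.99 to 1.52), with untreated cells at 6.04 to 6.97 CPM.

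The paired transcriptional repressors BHLHE40 and BHLHE41, which bind E-box sequences and take part in the circadian clock, were both higher. BHLHE40 stood at 7.48, 4.26 and 3.96 CPM (BT-TR1), 4.67, 4.42 and 6.34 CPM (BT-TR2), 14.4, 7.98 and 12.9 CPM (BT-TPR1) and 11.6, 12.4 and 13.5 CPM (BT-TPR2), with changes of 1.14 to 1.28 and an untreated range of 4.18 to 5.48 CPM. BHLHE41 stood at 11.4, 13.2 and 13.7 CPM (BT-TR1), 6.17, 8.49 and 7.69 CPM (BT-TR2), 22.1, 26.7 and 25.5 CPM (BT-TPR1) and 30.6, 33.5 and 35.4 CPM (BT-TPR2), above the untreated 3.90 to 5.17 CPM in every pool, with changes of 0.96 to 2.15 (edgeR, largest adjusted p = 5.43e-05). Their promoters are shown because each holds the E-box letters CACGTG, the sequence that factors of this family bind (RefSeq, GRCh38.p14; the 250 bases before the start, 5′ to 3′ on the gene's strand, E-box in capitals; BHLHE40 at chr3:4979187-4979436, plus strand, and BHLHE41 at chr12:26125038-26125287, minus strand).
BHLHE40: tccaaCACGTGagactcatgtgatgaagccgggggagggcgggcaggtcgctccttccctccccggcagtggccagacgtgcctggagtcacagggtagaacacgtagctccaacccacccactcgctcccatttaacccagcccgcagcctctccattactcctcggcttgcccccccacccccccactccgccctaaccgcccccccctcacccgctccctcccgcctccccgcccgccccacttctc
BHLHE41: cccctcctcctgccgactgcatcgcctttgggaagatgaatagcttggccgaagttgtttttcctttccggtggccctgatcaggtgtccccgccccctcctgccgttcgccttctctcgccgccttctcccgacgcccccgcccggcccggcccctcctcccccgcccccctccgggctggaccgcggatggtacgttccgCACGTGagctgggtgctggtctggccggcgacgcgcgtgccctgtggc
The motif reads the same on both strands. The GENCODE spans of these genes (chromosome 3, 4979116 to 4985323, and chromosome 12, 26120026 to 26125127) begin upstream of the RefSeq starts. Both marked E-boxes lie inside those spans, so by that annotation they are not before the gene. It is in 8.83% of the 10069 tested genes with a promoter in the RefSeq table (6.49% of all its 27305 promoters of this length), in 6.76% of the 74 shared higher genes matched there and in 4.64% of the 237 shared lower genes matched. A match describes these letters and is not a measured binding site. The motif was chosen after the values were seen.

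Of the other leading genes higher, VEGFB, a VEGF family ligand, showed 6.08 to 9.11 against 14.3 to 25.8 CPM, a difference (1.06 to 1.76) that the GC correction reduced to a smallest change of 0.15 (edgeR, adjusted p = 0.723). ABCC2, a drug and conjugate efflux pump, showed 37.3 to 60.0 against 81.3 to 111 CPM (changes 0.86 to 1.44), and COL14A1, a fibril-associated collagen, 6.99 to 9.39 against 13.3 to 17.7 CPM (0.83 to 1.09). RCOR2, a corepressor partner of LSD1, passed narrowly (1.0 to 1.97, largest adjusted p = 0.0275 in edgeR). Its call ended when BT-TR2 replicate 2 or 3, BT-TPR1 replicate 1 or BT-TPR2 replicate 1 or 3 was left out, at smallest changes of 0.87, 0.90, 0.77, 0.87 and 1.0.

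**Figure D2:**
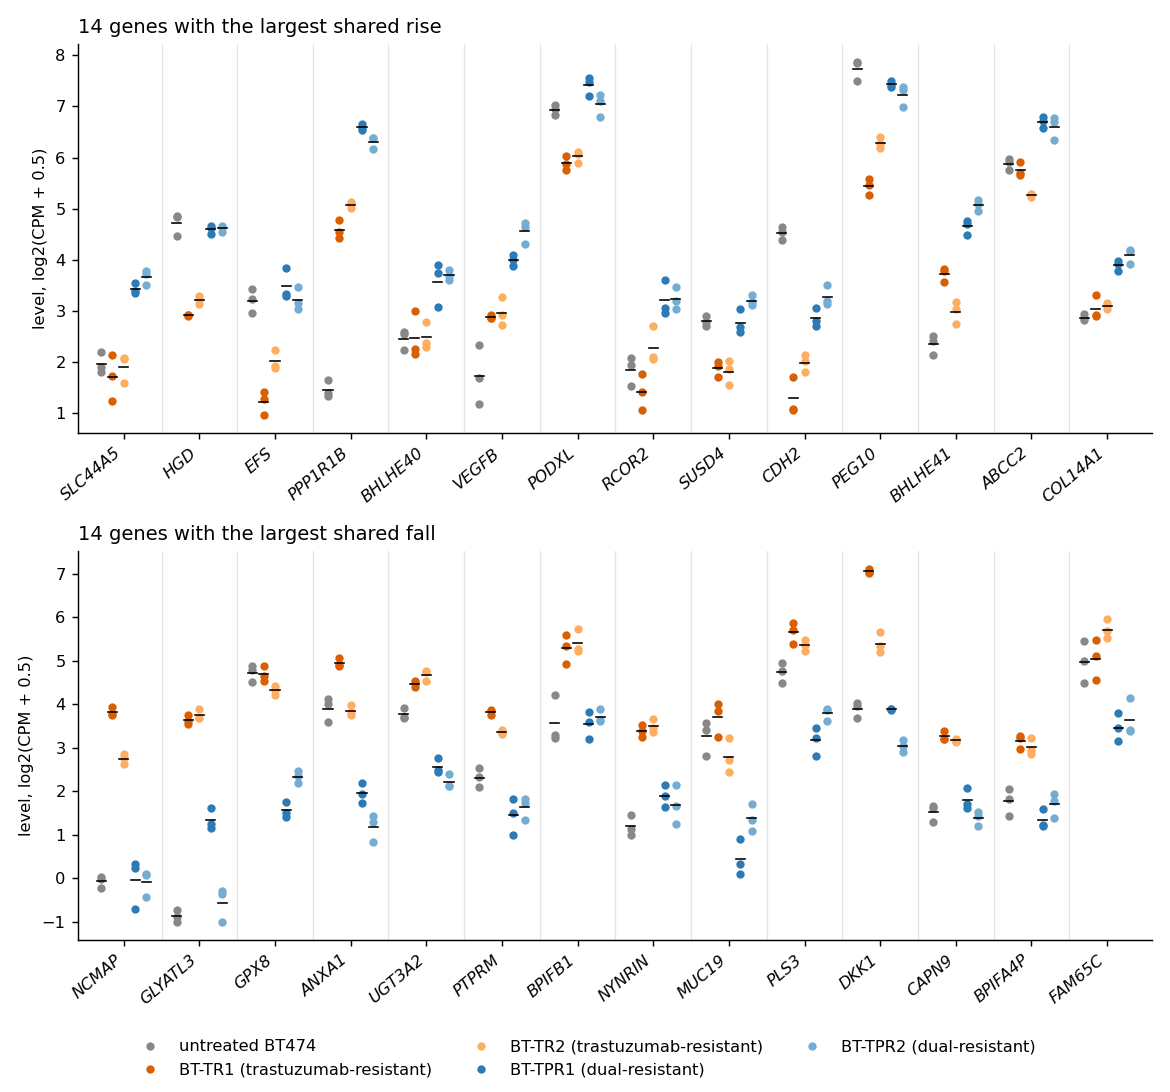
Level of each of the 28 leading genes, as log2(CPM + 0.5) on the vertical axis, in the 3 libraries of untreated BT474 and of each pool (points), with the mean of 3 as a black bar. These genes were picked to have no overlap between the 6 blue dual-resistant and the 6 orange trastuzumab-resistant points. The grey untreated points lie with the dual-resistant pools for HGD and NCMAP and with the trastuzumab-resistant pools for SLC44A5 and GPX8.

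The genes lower in the dual-resistant pools held larger changes. NCMAP, a myelin membrane protein (ENSG00000184454.6, chromosome 1, 24556111 to 24609328, plus strand), stood at 13, 14.8 and 13.2 CPM (BT-TR1), 6.71, 5.71 and 6.28 CPM (BT-TR2), 0.115, 0.691 and 0.768 CPM (BT-TPR1) and 0.581, 0.558 and 0.25 CPM (BT-TPR2). The dual-resistant pools lay around the untreated level (0.363 to 0.517 CPM) and BT-TR1 and BT-TR2 above it, a difference of -4.71 ± 0.34, -3.58 ± 0.34, -4.83 ± 0.34 and -3.70 ± 0.34 (edgeR, largest adjusted p = 1.56e-06). GLYATL3, a glycine acyltransferase-like gene, stood at 11.7, 11.3 and 13.1 CPM (BT-TR1), 12.5, 12.4 and 14.3 CPM (BT-TR2), 1.72, 1.89 and 2.56 CPM (BT-TPR1) and 0, 0.279 and 0.313 CPM (BT-TPR2), and at 0 to 0.103 CPM in untreated cells. BT-TPR1 and BT-TPR2 themselves differed, so its changes ran from -2.54 to -5.97. DKK1, a secreted Wnt antagonist, stood at 129.5, 139 and 132 CPM (BT-TR1), 49.9, 36.4 and 39.97 CPM (BT-TR2), 14.2, 14.3 and 14.3 CPM (BT-TPR1) and 7.79, 7.02 and 8.64 CPM (BT-TPR2), with untreated cells at 12.4 to 15.8 CPM. BT-TR1 was the highest pool and BT-TPR2 the lowest, and the changes ran from -1.56 to -4.09 (edgeR, largest adjusted p = 9.57e-07).

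In the next 3 genes the dual-resistant pools lay under the untreated level. GPX8, a peroxidase of the endoplasmic reticulum (ENSG00000164294.13, chromosome 5, 55160118 to 55167071, plus strand), stood at 22.7, 24.9 and 29 CPM (BT-TR1), 18.2, 20.9 and 19.5 CPM (BT-TR2), 2.35, 2.89 and 2.18 CPM (BT-TPR1) and 4.65, 4.09 and 5.01 CPM (BT-TPR2). Untreated cells held 22.3 to 29 CPM, overlapping BT-TR1 and above both dual-resistant pools. Its changes were -3.36 ± 0.15, -2.98 ± 0.15, -2.48 ± 0.14 and -2.10 ± 0.14 (edgeR, largest adjusted p = 9.04e-09). ANXA1, the phospholipid-binding annexin A1 (ENSG00000135046.13, chromosome 9, 73151757 to 73170393, plus strand), stood at 29.7, 29.1 and 33.1 CPM (BT-TR1), 15.4, 13.6 and 13 CPM (BT-TR2), 2.81, 3.33 and 4.10 CPM (BT-TPR1) and 1.28, 1.95 and 2.19 CPM (BT-TPR2), with untreated cells at 11.5 to 16.9 CPM. Its changes were -3.16 ± 0.23, -2.04 ± 0.23, -4.08 ± 0.25 and -2.95 ± 0.24. The gel-forming mucin gene MUC19 held 5.00 to 15.7 CPM in trastuzumab-resistant libraries, 0.574 to 2.79 CPM in dual-resistant ones and 6.53 to 11.4 CPM in untreated ones (changes -1.62 to -3.84).

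The remaining 8 leading genes lower were lower by between 2.73-fold and 4.00-fold at their smallest change. They were UGT3A2, a glycosyltransferase (-2.0 to -2.59), PTPRM, a receptor tyrosine phosphatase (-1.89 to -2.57), PLS3, the actin bundler plastin 3 (-1.60 to -2.54), CAPN9, a calpain protease (-1.50 to -2.11), NYNRIN (-1.63 to -1.93) and FAM65C (-1.45 to -2.29). BPIFB1 and the pseudogene BPIFA4P, of the BPI fold family of secreted airway and gland proteins, were lower together (-1.63 to -1.91 and -1.46 to -2.03). Members of such families can share reads, so their separate values are uncertain.

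Over all shared calls, the untreated level took no single side. Of the 98 genes higher, the untreated mean was nearer to the dual-resistant mean in 53 and nearer to the trastuzumab-resistant mean in 45. Of the 327 lower, the split was 164 and 163. It lay between the 2 class means in 57 and 163 genes, above both in 20 and 89, and below both in 21 and 75. These are counts on the log2(CPM + 0.5) scale, with no test.

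Gene lists were described by the counts of their tested members among the shared calls, beside 0.555% higher and 1.85% lower over all tested genes. Of 48 lists, 21 held no shared call. These included the 38 tested mitosis genes, 42 DNA replication genes, 25 cholesterol synthesis genes, 23 genes of the PI3K and AKT core, 19 epithelial identity genes, 16 Notch genes and 8 keratins. Their median changes, taken over members of the mean of the 4 changes, were -0.13, 0.11, -0.18, 0.03, 0.15, 0.11 and 0.07, beside 0.01 for all tested genes.

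The apocrine secretory list, of glandular products of breast and sweat epithelium, had 6 of 15 tested members lower and 0 higher, with a median change of -0.80. SCGB2A2, mammaglobin A, stood at 942, 1083 and 1036 CPM (BT-TR1), 1664, 1351 and 1465 CPM (BT-TR2), 471, 534 and 479 CPM (BT-TPR1) and 109, 101 and 115 CPM (BT-TPR2), and at 8.88 to 11.5 CPM in untreated cells. All pools exceeded untreated cells, the trastuzumab-resistant pools most, and the changes were -1.04 ± 0.13, -1.59 ± 0.14, -3.23 ± 0.14 and -3.78 ± 0.15 (edgeR, largest adjusted p = 2.11e-05). Its neighbours on chromosome 11, between 62208668 and 62273156, moved with it: SCGB2A1 (-1.78 to -2.65) and SCGB1D2 (-0.96 to -3.06), which with SCGB2A2 were 3 adjacent tested genes all lower. SCGB2A1 was low, at 3.43 to 5.475 CPM in trastuzumab-resistant and 0.465 to 1.45 CPM in dual-resistant libraries. AZGP1, a zinc-binding secreted glycoprotein, stood at 23.9, 25.2 and 23.6 CPM (BT-TR1), 37.1, 29.2 and 33.3 CPM (BT-TR2), 12.3, 11 and 15.5 CPM (BT-TPR1) and 7.55, 6.09 and 7.33 CPM (BT-TPR2) (-0.91 to -2.25). CRISP3 (-1.79 to -2.73) and LCN2 (-2.13 to -2.31) were lower at under 5 CPM in every pool, and the LCN2 call ended with all libraries thinned to the shallowest (-1.61, adjusted p = 0.136 in edgeR). LCN2 passed the filter on low counts only through the trastuzumab-resistant libraries, so it could hardly be called higher. The prolactin-induced PIP was not a shared call, at 7.10 to 8.96 CPM in BT-TPR1 and 1.57 to 3.84 in the other 3 pools. The count of 6, LCN2 included, held in all 12 fits without 1 library, and over all 25 alternatives it ran from 4 to 7. Related secretoglobin genes can share reads, so the 3 calls of this cluster may not be separate.

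The interferon-stimulated list had 6 of 31 tested members lower and 0 higher, with a median change of -0.49. PARP14 and PARP9, of the poly-ADP-ribose polymerase family, were the members with higher counts. PARP14 stood at 38.7, 43.5 and 41.3 CPM (BT-TR1), 27.4, 34 and 32.9 CPM (BT-TR2), 18.4, 18.8 and 20.1 CPM (BT-TPR1) and 12.3, 17.4 and 15.5 CPM (BT-TPR2), with changes of -0.72 to -1.45, and PARP9 at 31.2, 36.2 and 40.3 CPM (BT-TR1), 27.3, 31 and 29.3 CPM (BT-TR2), 18.4, 20.8 and 22.3 CPM (BT-TPR1) and 14.2, 14.6 and 15.5 CPM (BT-TPR2), with changes of -0.51 to -1.28. The classes did not overlap in either gene. The PARP14 call held in all alternatives but the 2-fold threshold. The PARP9 call ended when thinned (-0.45, adjusted p = 0.0597 in edgeR) and without BT-TR2 replicate 2 or 3 or BT-TPR1 replicate 1 or 2 (-0.43 to -0.52, 0.0655 to 0.114). The other 4, the antiviral sensors and effectors IFIT1, IFIT2, OAS1 and OAS2, were near the limit of detection. Over the 3 libraries of a pool IFIT1 had 35 and 48 counts in the trastuzumab-resistant pools and 7 and 11 in the dual-resistant pools. In the same order IFIT2 had 41, 45, 7 and 10 counts, OAS1 34, 62, 18 and 20, and OAS2 19, 33, 4 and 3. All 4 therefore rest on between 19 and 62 reads in the trastuzumab-resistant pools and between 3 and 20 in the others. IFIT1, OAS1 and OAS2 passed the filter on low counts only through the trastuzumab-resistant libraries, so they could hardly be called higher. BST2 and EPSTI1, tested but not shared calls, would not have passed it without those libraries either. The direction of all these genes is therefore no support for the list's count of lower calls or its median. Thinned to the shallowest library, the list kept 1 of its 6 calls, that of PARP14, and IFIT1, IFIT2 and OAS2 had too few reads to be tested. The OAS1 call ended without BT-TR1 replicate 2 (-1.29, adjusted p = 0.0635), and the OAS2 call without BT-TR2 replicate 3 (-2.50, 0.0542) or BT-TPR1 replicate 2 (-2.25, 0.0544).

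The promoters of IFIT1 and PARP14 are shown because interferon-stimulated genes are known for a response element in their promoters, searched as GAAA, any 2 bases and GAAA again, on both strands (RefSeq, GRCh38.p14, the 250 bases before the start, 5′ to 3′ on the plus strand, matches in capitals; IFIT1 at chr10:89392373-89392622 and PARP14 at chr3:122680589-122680838).
IFIT1: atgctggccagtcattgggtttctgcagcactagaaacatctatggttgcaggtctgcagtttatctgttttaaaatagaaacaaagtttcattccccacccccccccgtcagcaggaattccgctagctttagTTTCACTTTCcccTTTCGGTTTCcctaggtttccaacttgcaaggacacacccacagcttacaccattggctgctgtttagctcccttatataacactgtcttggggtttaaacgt
PARP14: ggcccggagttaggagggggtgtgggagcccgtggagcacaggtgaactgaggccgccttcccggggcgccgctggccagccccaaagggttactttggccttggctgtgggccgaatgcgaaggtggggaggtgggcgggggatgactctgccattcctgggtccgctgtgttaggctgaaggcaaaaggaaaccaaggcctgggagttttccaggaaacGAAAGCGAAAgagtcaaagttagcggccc
IFIT1 holds 2 matches, both on the opposite strand, from 116 to 107 and from 103 to 94 bases before the start, and PARP14 holds 1, from 29 to 20 bases before it. Of the 6 genes lower, 4 had a promoter in the table and 2 held the motif, against 2.11% of the 10069 tested genes with a promoter, 3.07% of all 27305 promoters and 2.53% of the 237 shared lower genes matched. As the 6 come from a list of genes known for this element, the difference says nothing about the lower calls. List members that were not called were not counted. The motif was chosen after the values were seen.

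**Figure D3:**
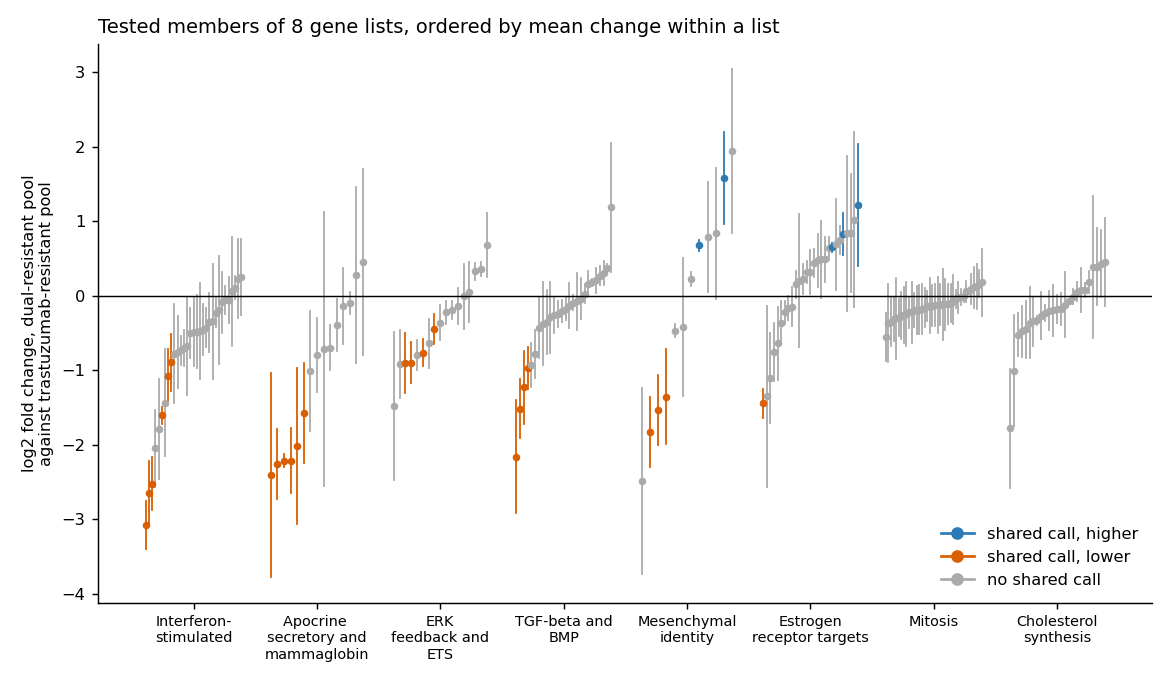
Log2 fold change (vertical axis, dual-resistant against trastuzumab-resistant) of every tested member of 8 lists, ordered within a list by mean change; points are the mean and bars the range of the 4 contrasts, orange for shared lower calls, blue for shared higher calls and grey for the rest. The interferon-stimulated and apocrine lists each hold 6 shared lower calls and no higher one, and the mitosis and cholesterol synthesis lists hold neither.

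ERK signalling induces feedback genes, such as those of the SPRY, SPRED and DUSP families, which restrain it, and ETS transcription factors, which act downstream of it. Of 17 tested, 4 were lower (SPRY1, DUSP6, SPRED1 and DUSP4) and 0 higher, with a median change of -0.36. DUSP6, the ERK phosphatase, stood at 47.3, 50.8 and 54.2 CPM (BT-TR1), 47.4, 46.6 and 47 CPM (BT-TR2), 23, 30.3 and 25.7 CPM (BT-TPR1) and 29.5, 29.9 and 34.7 CPM (BT-TPR2), with untreated cells at 28.4 to 33.5 CPM. Its changes were -0.58 to -0.95 (edgeR, largest adjusted p = 0.00464), and its call held in all fits but the 2-fold threshold. SPRY1 (-0.63 to -1.17) passed in all 12 fits without 1 library, and lost its call with no filter on low counts (-0.61, adjusted p = 0.0898). SPRED1 and DUSP4 were smaller (-0.49 to -1.30 and -0.25 to -0.65), and the list's count was 2 without BT-TR1 replicate 2 or without BT-TPR1 replicate 2 or 3, 1 with no filter and 7 with the replicate block. Over all 25 alternatives, the 2-fold threshold included, that count ran from 0 to 7.

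In the TGF-beta and BMP list 4 of 26 tested members were lower and 0 higher, with a median change of -0.19. TGFB3, a ligand of the family, stood at 268, 294 and 259 CPM (BT-TR1), 229, 189.9 and 227 CPM (BT-TR2), 126, 118 and 143 CPM (BT-TPR1) and 90.4, 70.1 and 89.3 CPM (BT-TPR2), with untreated cells at 172 to 198 CPM, a change of -0.74 to -1.72. FSTL1, a secreted BMP antagonist, stood at 20.3, 27.4 and 20.7 CPM (BT-TR1), 26.1, 26.6 and 29.6 CPM (BT-TR2), 6.89, 6.47 and 8.58 CPM (BT-TPR1) and 11.8, 7.76 and 12 CPM (BT-TPR2), all far under the untreated 105 to 122 CPM, and changed by -1.12 to -1.91. SMAD6, an inhibitory SMAD (-0.69 to -1.25), and ID4 (-1.40 to -2.92) completed the 4. ID4 was at under 3 CPM in every pool, and its call ended without BT-TR2 replicate 2 (-1.02, adjusted p = 0.171) and without BT-TPR1 replicate 1, 2 or 3 (-1.46, -1.29 and -1.46, adjusted p from 0.0613 to 0.107).

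Mesenchymal identity genes went both ways, with 3 of 12 tested members lower and 2 higher. The collagen crosslinking enzyme LOX stood at 6.74, 8.17 and 6.99 CPM (BT-TR1), 5.57, 8.44 and 9.42 CPM (BT-TR2), 1.21, 1.82 and 1.73 CPM (BT-TPR1) and 3.14, 2.69 and 2.69 CPM (BT-TPR2). VIM, encoding vimentin, showed 4.75 to 7.77 CPM in trastuzumab-resistant and 1.26 to 2.63 in dual-resistant libraries, and both classes lay under the untreated 13.3 to 16 CPM. The matrix protein gene TGFBI was lower by -0.72 to -2.0. In contrast CDH2 was higher, and S100A4, a calcium-binding protein, was higher by 0.60 to 0.75, a call that ended without BT-TR1 replicate 2 (0.54, adjusted p = 0.0637) or 3 (0.45, 0.0801), BT-TR2 replicate 3 (0.58, 0.0678) or BT-TPR1 replicate 1 (0.52, 0.0725).

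Hormone receptor genes came next, since BT474 expresses them. PGR, the progesterone receptor gene and an estrogen receptor target, stood at 165, 213 and 199.7 CPM (BT-TR1), 183, 218 and 211 CPM (BT-TR2), 662, 783 and 673 CPM (BT-TPR1) and 154, 196 and 183 CPM (BT-TPR2). BT-TPR1 was higher than both trastuzumab-resistant pools (1.87 ± 0.17 and 1.79 ± 0.17) and BT-TPR2 was not (-0.12 ± 0.17 and -0.20 ± 0.17), and the 2 dual-resistant pools differed by -1.99 ± 0.17 (edgeR, adjusted p = 8.29e-07). ESR1, the estrogen receptor gene, was higher in BT-TPR1 by 0.47 ± 0.10 and 0.38 ± 0.10. In BT-TPR2 the values of 0.14 ± 0.10 and 0.05 ± 0.10 did not pass (adjusted p = 0.331 and 0.891 in edgeR). BT-TPR2 was not shown to differ from BT-TPR1 in ESR1 (-0.33 ± 0.10, adjusted p = 0.0893 in edgeR). The ESR1 call in BT-TPR1 against BT-TR2 ended in each of the 6 fits without 1 library of those pools (0.35 to 0.39, adjusted p from 0.073 to 0.119 in edgeR). Of 27 tested estrogen receptor targets, 3 were higher (GREB1, CXCL12 and MYB) and 1 lower (SERPINA1), with a median change of 0.32. GREB1, a coactivator of the receptor, stood at 203, 211 and 177 CPM (BT-TR1), 213, 187 and 194 CPM (BT-TR2), 476, 399.7 and 407 CPM (BT-TPR1) and 337, 259.7 and 270.0 CPM (BT-TPR2), with untreated cells at 402 to 443 CPM and changes of 0.55 to 1.12. The MYB call (0.59, adjusted p = 0.0375) held in 4 of the 12 fits without 1 library, ending without any 1 library of BT-TR2 or BT-TPR1 or BT-TPR2 replicate 2 or 3 (0.48 to 0.64, adjusted p from 0.063 to 0.175 in edgeR). The CXCL12 change was 0.40 to 2.04, largest in BT-TPR1, and its call ended without BT-TR2 replicate 2 or 3 or BT-TPR2 replicate 3 (0.34, 0.39 and 0.37).

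Single members of further lists were called. Of 21 fatty acid synthesis genes, 2 were lower and 0 higher. ME1, the malic enzyme that supplies NADPH, stood at 31, 30.2 and 35.6 CPM (BT-TR1), 25, 28.8 and 26.5 CPM (BT-TR2), 12.1, 13.7 and 12.8 CPM (BT-TPR1) and 8.89, 13.8 and 13.5 CPM (BT-TPR2) (-1.06 to -1.42), and ELOVL6, a fatty acid elongase, at 73.8, 92.1 and 96.9 CPM (BT-TR1), 56.6, 61.4 and 64 CPM (BT-TR2), 26.7, 28.3 and 33 CPM (BT-TPR1) and 32.5, 30.2 and 39.6 CPM (BT-TPR2) (-0.83 to -1.58). Of 16 xenobiotic and NRF2 genes, the retinaldehyde dehydrogenase genes ALDH1A3 and ALDH1A1 were lower and none was higher. ALDH1A3 stood at 4.08, 5.47 and 4.75 CPM (BT-TR1), 4.13, 3.86 and 3.59 CPM (BT-TR2), 0.689, 0.943 and 0.704 CPM (BT-TPR1) and 0.814, 0.883 and 0.939 CPM (BT-TPR2) (-2.13 to -2.60), and ALDH1A1 changed by -0.69 to -1.99, a call lost without BT-TR2 replicate 3 (-0.60) or BT-TPR1 replicate 1 (-0.57). Of 24 Wnt genes, LEF1, a transcription factor of the pathway, was higher (1.18 to 3.07) and DKK1 lower. The LEF1 call ended when thinned (1.0, adjusted p = 0.112 in edgeR). LEF1 held 8.38, 7.92 and 9.60 CPM (BT-TPR1) and 2.73, 3.39 and 4.01 CPM (BT-TPR2), against 0.889 to 1.86 in the trastuzumab-resistant libraries. In the 17q12 amplicon list, of 26 tested genes around ERBB2, PPP1R1B was higher and TNS4, a tensin, lower (-1.47 to -2.97), the latter losing its call without BT-TR1 replicate 2 (-1.14, adjusted p = 0.0615). FOSL2, an AP-1 subunit, was the only shared call of 13 immediate early genes (0.62 to 0.85), and ASNS, asparagine synthetase, of 28 ATF4 and ER stress genes (-0.50 to -0.75). The 27 FOXO and PI3K-repressed genes went both ways. IRS1 (0.56 to 1.19) and BCL6 (0.43 to 0.73) were higher, and PDK4 (-0.67 to -1.12) and TRIB1 (-0.50 to -0.83) lower. These calls held in 7, 6, 3 and 12 of the 12 fits without 1 library. THRB (0.48 to 0.77) and PMAIP1 (0.66 to 0.95) were higher, holding in 7 and 8 of those fits. BCL2L14 was lower (-1.0 to -1.47) and held in 12.

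By chromosome, tabulated after the shared calls were seen and with no test, the shared lower calls were most frequent on chromosome 14. It held 67 of the 327 shared lower genes, 11.4% of its 586 tested genes, against 1.85% over all chromosomes and 2.62% on chromosome 10, the next highest. Its shared higher genes were EFS and SERPINA5, 0.341% of those tested. The median change of its tested genes was -0.46 in BT-TPR1 against BT-TR1, -0.28 in BT-TPR1 against BT-TR2, -0.44 in BT-TPR2 against BT-TR1 and -0.29 in BT-TPR2 against BT-TR2, where the medians of all tested genes lay between -0.01 and 0.02. After the GC correction the 4 medians were -0.37, -0.24, -0.41 and -0.26. The 20 tested mitochondrial genes also had low medians, -0.43, -0.28, -0.22 and -0.09 in the same order, with no shared call. The remaining 258 shared lower genes with a position lay on other chromosomes. TGFB3, SERPINA1, NYNRIN and EGLN3, a HIF prolyl hydroxylase (-0.56 to -1.35), are among the 67.

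**Figure D4:**
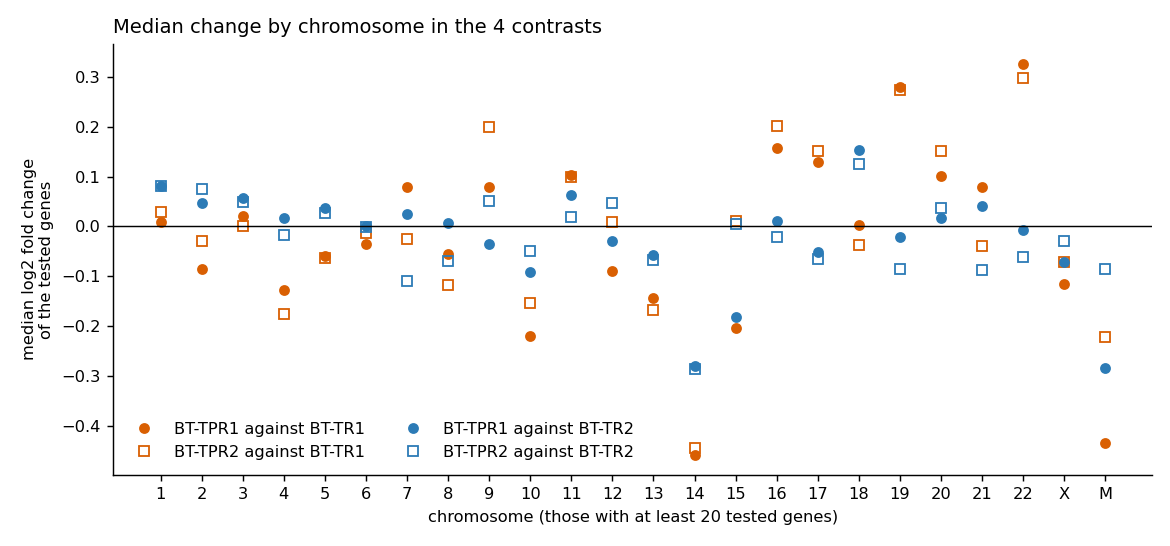
Median log2 fold change of the tested genes (vertical axis) on each chromosome with at least 20 tested genes (horizontal axis), in the 4 contrasts; circles are BT-TPR1 and squares BT-TPR2, orange against BT-TR1 and blue against BT-TR2. Chromosome 14 lies at -0.46 and -0.44 for BT-TPR1 and BT-TPR2 against BT-TR1 and at -0.28 and -0.29 against BT-TR2, and M is the mitochondrial genome.

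Each library was also set against untreated cells. The median log2 ratio of chromosome 14 genes to the untreated mean was -0.29, -0.30 and -0.31 in the BT-TPR1 libraries and ranged from -0.31 to -0.28 for BT-TPR2. It was 0.09, 0.13 and 0.16 in BT-TR1 and -0.04, -0.02 and -0.04 in BT-TR2. The 6 libraries of cells treated for 3 days lay between -0.02 and 0.02. The dual-resistant libraries were thus the lowest of all 21, and BT-TR1 the highest. The difference ran along the chromosome: in bins of 50 genes in order, the median was under 0 in all 4 contrasts in 11 of 12 bins, the exception being the last bin, of 36 genes, where it was 0.18 and 0.02 against BT-TR1 and -0.27 and -0.46 against BT-TR2. The count of 67 was 43 to 60 when 1 library was left out, lowest without BT-TPR1 replicate 2, 31 with no filter and 154 with the replicate block. Over all 25 alternatives, the 2-fold threshold included, it ran from 12 to 159.

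**Figure D5:**
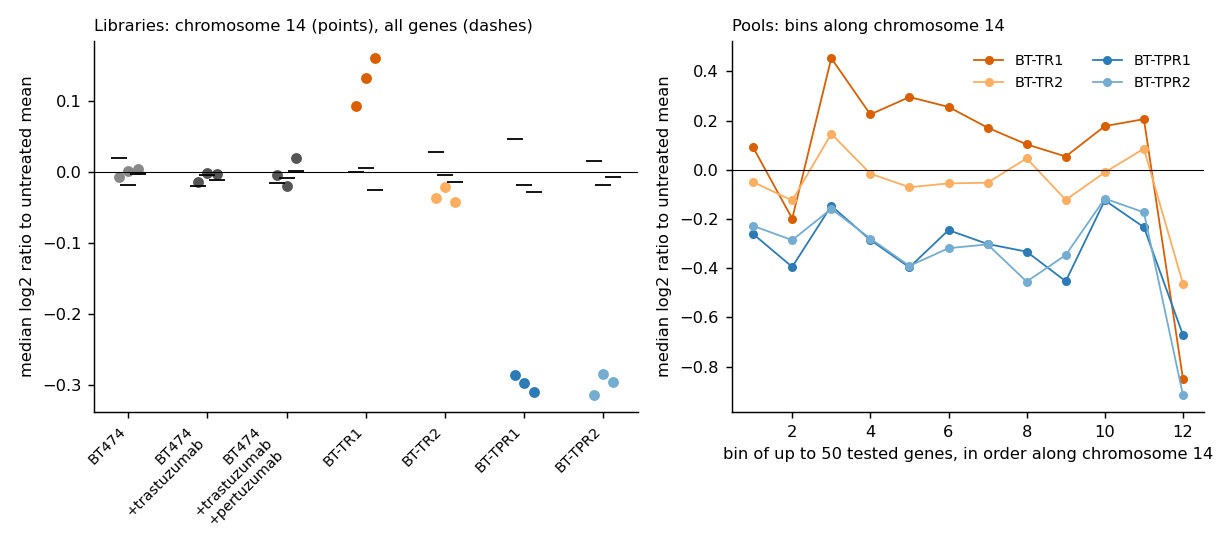
Median log2 ratio to the untreated mean (vertical axes) of chromosome 14 genes. Left, each of the 21 libraries (points), with all tested genes as dashes; right, each pool in 12 bins of up to 50 tested genes in order along the chromosome. The dual-resistant libraries sit between -0.31 and -0.28, below the BT-TR2 libraries, between -0.04 and -0.02, and the BT-TR1 libraries above 0.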

How the data were processed

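RNA-seq of 21 libraries of BT474 cells and derived pools (7 groups of 3) was analysed. Per the submitters' processing notes, the tools were Bowtie2, featureCounts and DESeq2, with hg38; their settings and strandedness are not given in the sources used here. The authors deposited raw read counts per gene for 37355 genes, and a table of transformed expression values on a log2 scale, used here only for the limma alternative. The labels name no batch.

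The counts were tested with edgeR 4.0.16 (R 4.3.3): filterByExpr (minimum count 10, minimum total 15), TMM, 1 term per group, all 21 libraries in the fit, quasi-likelihood tests and Benjamini-Hochberg adjustment over 17650 genes at 0.05. Shared calls passed in 1 direction in all 4 contrasts. A second edgeR test used counts summed per pool. Scripts were tested on simulated data. Depth ran from 7939270 to 19559313 counts per pool library, so genes under a few CPM rest on few reads.

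Named genes were, of shared calls averaging at least 5 CPM and not overlapping between classes, the 14 largest rises and 14 largest falls by smallest change. The HER receptors, ESR1, PGR and PPP1R1B were added whatever their values, as were up to 4 shared calls per list and direction, and runs of at least 4 adjacent calls, of which there were 0. Some calls that the list rule picked, such as ABCA12, are not described. The members and lists were chosen with earlier results of these data known. The chromosome profile, promoters, TENM4, PARP14, PARP9, SCGB1D2, AZGP1, PIP and SERPINA5 were chosen after their values were seen.

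Gene positions and GC content came from the GENCODE annotation of GRCh38 (hg38), matched for 36530 genes, and promoters from RefSeq (GRCh38.p14), matched for 311 of the 425 shared calls. Deviations of same-numbered libraries from their group means correlated above 0.1 in every pair for BT-TPR1 with BT-TR2 (0.732, 0.465 and 0.472), BT-TPR2 with BT-TR2 (0.694, 0.371 and 0.549) and the 2 dual-resistant pools (0.726, 0.487 and 0.503). For BT-TR1 with BT-TPR1, BT-TPR2 and BT-TR2, replicate 2 did not (-0.0014, -0.076 and 0.082). Replicates 1 and 3 did (0.642 and 0.362 with BT-TPR1, 0.595 and 0.552 with BT-TPR2, 0.6275 and 0.448 with BT-TR2). The pairing comes from these correlations, not from the labels. Alternatives were other filters and normalizations, DESeq2 1.42.0, limma 3.58.1, a fit of the 4 pools alone, a replicate block, a 2-fold threshold, replicates 2 and 3 alone, GC correction, thinning to the shallowest library and leaving out each library.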

Additional observations from a re-analysis of the deposited data

Results flagged for a closer look

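Among the leading genes, 13 also differed between pools of 1 class (edgeR, adjusted p under 0.05), so the size of their change depends on which pools are set against each other. BT-TR2 was higher than BT-TR1 in EFS by 0.92 (adjusted p = 0.0219), PPP1R1B by 0.49 (0.0265), RCOR2 by 0.97 (0.0386), CDH2 by 0.78 (0.0261) and PEG10 by 0.85 (0.00189), as log2 fold changes. Changes of BT-TR2 against BT-TR1 under 0 were found for BHLHE41 at -0.77 (adjusted p = 0.00259), ABCC2 at -0.49 (0.00974), NCMAP at -1.13 (0.00898), GPX8 at -0.38 (0.0486), ANXA1 at -1.13 (0.00277), MUC19 at -0.96 (0.0335) and DKK1 at -1.66 (4.9e-06).

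Between the dual-resistant pools, BT-TPR2 against BT-TPR1 was -3.31 for GLYATL3 (edgeR, adjusted p = 0.000148), 0.88 for GPX8 (0.002) and -0.87 for DKK1 (0.00143).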

How the results depend on the processing

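Among the alternatives, changes of direction were found for ERBB2, which passed in no contrast. Its change in BT-TPR1 against BT-TR1 was -0.25 with GC correction, -0.25 with the replicate block added, and from -0.058 (without BT-TPR1 replicate 1; -0.033 without BT-TR1 replicate 3) to 0.26 without 1 library. In BT-TPR2 against BT-TR1 it was -0.054 with GC correction and -0.060 with the block added, and against BT-TR2 it ran from -0.46 to 0.0070 without 1 library, the last without BT-TR2 replicate 1. These ERBB2 fits, and those of PARP14, PARP9, SCGB1D2 and AZGP1, were chosen after seeing the data. Of the 28 leading genes, 20 kept their call in all 25 alternatives and 26 in all but the 2-fold threshold, the exceptions being VEGFB and RCOR2. Shared higher calls (98) and lower calls (327) were 260 and 611 with a replicate block, 18 and 121 at a 2-fold threshold, 298 and 442 with GC correction, and 511 and 648 with GC correction and the block. Without 1 library they were 58 to 97 and 242 to 292.

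With the replicate block, calls were 7960 for BT-TPR1 against BT-TR1, 3150 for BT-TPR1 against BT-TR2, 8064 for BT-TPR2 against BT-TR1, 3012 for BT-TPR2 against BT-TR2, 7556 for BT-TR2 against BT-TR1 and 2119 for BT-TPR2 against BT-TPR1. The block was common to all groups, although replicate 2 of BT-TR1 was not paired by number with any pool. Counts that involve BT-TR1 thus rest on a pairing seen only in replicates 1 and 3. At a 2-fold threshold the same contrasts gave 1481, 433, 1344, 494, 684 and 231. GC correction gave 2400 and 2349 against BT-TR2, 1684 for BT-TR2 against BT-TR1 and 1383 for BT-TPR2 against BT-TPR1, and with the block added 3995, 3795 and, between the dual-resistant pools, 2786. Replicates 2 and 3 alone gave 5338 for BT-TR2 against BT-TR1. The causes were not tested.

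Without 1 library, BT-TPR1 against BT-TR1 gave 2435 (without BT-TPR1 replicate 1) to 5396 calls, with 2914 and 2682 without BT-TR1 replicates 2 and 3. BT-TPR1 against BT-TR2 gave 754 (without BT-TPR1 replicate 2) to 1258, with 803 without BT-TPR1 replicate 1 and 810.0 without BT-TR2 replicate 3. BT-TPR2 against BT-TR1 gave 2550 (without BT-TR1 replicate 3) to 5097, with 2754 without BT-TR1 replicate 2 and 2658 without BT-TPR2 replicate 1. BT-TR2 against BT-TR1 gave 562 (without BT-TR2 replicate 1) to 4474, with 882 and 692 without BT-TR1 replicates 2 and 3. BT-TPR2 against BT-TPR1 gave 351 (without BT-TPR1 replicate 1) to 629, with 373 without BT-TPR1 replicate 2 or BT-TPR2 replicate 3.

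The 33 calls on pool sums became 667 without a filter, 13 with RLE normalization, 0 with library size alone, 275 with DESeq2, 11 with limma, 136 with GC correction, 4 when thinned, and 0 to 215 without 1 library, the highest without BT-TR2 replicate 1. Library size alone moved the median of all genes in BT-TPR1 against BT-TR1 from -0.01 to 0.12. At the depth of the shallowest library the interferon-stimulated list kept 1 of 6 calls.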

Other observations

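The first 35 Mb of chromosome 1, a boundary chosen after the values were seen, held 8 shared higher calls among 412 tested genes (1.94%, against 0.555% of all tested genes) and 5 lower (1.85% of all tested genes were lower). Its median change was 0.35 in BT-TPR1 and 0.36 in BT-TPR2 against BT-TR1, and 0.25 and 0.21 against BT-TR2. The median GC content there was 54.6%, and after GC correction the medians were 0.21, 0.18, 0.31 and 0.28 in the same order. Without BT-TPR2 replicate 1 the median of BT-TPR2 against BT-TR2 was 0.06. No test was made.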
